A study of Mus musculus with 6 samples.

Results

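The genes described here are the heterogeneous nuclear ribonucleoproteins, with symbols that start with Hnrnp and a letter, and the RNA-binding motif genes, with symbols that start with Rbm and a number. They were chosen by symbol, pseudogenes left out, with an average level over all libraries of 1 TPM or more, a unit that corrects for transcript length and library size. Of 60 genes with such a symbol, 54 reached that level: 20 Hnrnp genes and 34 Rbm genes, among 15108 genes at this level in the whole data set. The member nearest above the limit was Rbm3os, an antisense RNA at a mean of 1.07 TPM, and the gene nearest below it was Rbm20, at 0.757 TPM. The genes left out were Rbm20, Rbm24, Rbm44, Rbm46os, Rbm47 and Rbm8a2.

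The libraries came from male C57bl/6 mice of 8 to 10 weeks whose sciatic nerves had been injected on both sides with an adeno-associated virus (AAV), 4 weeks ahead of a cut through the dorsal columns, the sensory tracts of the spinal cord. The virus carried leptin and GFP in the AAV-Leptin-GFP group (3 libraries) and GFP in the AAV-GFP group (3 libraries). Both groups had the injury, and dorsal root ganglia (DRG) of lumbar levels 4 to 6 were taken 24 hours after it. The ganglia were dissociated and enriched for neurons on a 15% albumin gradient. The labels give neither the promoter and serotype of the virus nor the number of animals in a library, so p-values measure the spread between libraries, which may be technical.

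Hnrnp proteins coat newly made transcripts in the nucleus and steer their splicing, export, stability and, in neurons, transport along axons and dendrites. Many RBM proteins are parts or regulators of the spliceosome. Several genes of both families make, beside the coding mRNA, transcripts that keep an intron or carry an early stop codon. Such transcripts are known in some of these genes to be kept in the nucleus or degraded, and to lower the output of protein.

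Leptin transcripts were found in the 3 AAV-Leptin-GFP libraries at 0.751, 0.547 and 3.56 TPM and were listed at 0 in the AAV-GFP libraries. Socs3, the feedback inhibitor of leptin receptor signalling, stood at 109, 131 and 102 TPM in AAV-Leptin-GFP libraries and 51.9, 46.5 and 45.7 TPM in AAV-GFP libraries (log2 fold change 1.22, limma adjusted p = 0.00835). All 12 sensory neuron markers were detected, with a summed level of 23478 to 24168 TPM in AAV-Leptin-GFP libraries and 23878 to 25289 TPM in AAV-GFP libraries. All 9 satellite glia and 9 Schwann cell markers were present as well. The satellite glia markers summed to 7456 to 8199 TPM in AAV-Leptin-GFP and 8309 to 9485 TPM in AAV-GFP libraries, and the Schwann cell markers to 871 to 951 TPM in AAV-Leptin-GFP and 981 to 1020 TPM in AAV-GFP libraries. Of these 18 markers 1 passed the test, Egr2, which was higher (log2 fold change 1.29, limma adjusted p = 0.0155) and is also an immediate early gene. The 5 red blood cell markers summed to 239, 374 and 1724 TPM in AAV-Leptin-GFP libraries and to 256, 170 and 171 TPM in AAV-GFP libraries, with AAV-Leptin-GFP replicate 3 far above the others, and 0 of them passed the test (2 higher at an unadjusted p under 0.05, limma). The 18 immediate early genes summed to 1255 to 1661 TPM in AAV-Leptin-GFP and 689 to 805 TPM in AAV-GFP libraries, and 13 of them passed the test as higher. Mitochondrially encoded transcripts took 8.08% ± 0.949 (SD, n = 3) of TPM in AAV-Leptin-GFP and 5.88% ± 0.234 (n = 3) in AAV-GFP libraries. The part of these differences in the results on Hnrnp and Rbm genes was not tested. In such bulk libraries, fewer cells of a type and less RNA per cell cannot be told apart.

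The summed level of the Hnrnp and Rbm genes was higher in every AAV-Leptin-GFP library than in every AAV-GFP library, and the difference lay in transcripts that do not code for protein. No test was made on these sums, since the genes were chosen with results known. For the 54 genes the sum was 4014, 4044 and 3673 TPM in AAV-Leptin-GFP libraries, against 3644, 3447 and 3527 TPM in AAV-GFP libraries. Their protein-coding transcripts summed to 3196, 3218 and 3023 TPM in AAV-Leptin-GFP libraries, against 3228, 3125 and 3189 TPM in AAV-GFP libraries. The groups overlapped for the coding transcripts and did not overlap for the total. The Hnrnp genes carried most of the difference in the total, 302 TPM, and the Rbm genes 68.6 TPM; with coding transcripts only these differences were -20.5 and -14.6 TPM.

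The transcripts classed as retaining an intron are the ones on which the later results turn, and the ends of some of these introns are printed here. Introns of this kind begin with GT, the donor, and end with AG, the acceptor, and a transcript that reads through either one still holds intron sequence. Of 41 retained-intron transcripts of these genes that averaged 1 TPM or more, 40 read through a donor or acceptor that a coding transcript of the same gene uses, and 13 held a whole intron. They came from 20 genes. Of 35 different donors read through, 34 had GT, and all 28 acceptors had AG. The donors below show 10 exon bases followed by 20 intron bases, and the acceptors 20 intron bases followed by 10 exon bases; capitals mark the GT or AG of the intron. They are taken from GRCm38 and given 5′ to 3′ on the strand of the gene, for 5 of the genes whose total level or retained-intron share passed the test. These 5 were chosen after their values were seen.
Hnrnpa2b1-212 donor (chr6:51465159-51465188, minus strand): ggacctggagGTtagttttaattaaatttt
Hnrnpl-212 donor (chr7:28815343-28815372, plus strand): agtggacaagGTaatcctgatggctacttt
Hnrnpl-205 acceptor (chr7:28818441-28818470, plus strand): actctgttttcaatctacAGgtgaccctgg
Rbm39-205 donor (chr2:156179157-156179186, minus strand): ttacaagaagGTgagaaaacacgctagtga
Rbm28-204 donor (chr6:29157048-29157077, minus strand): tctgccccagGTgagaggtgttgcttctgc
Rbm25-206 donor (chr12:83660669-83660698, plus strand): tacacacaagGTagtattcttgatttttca
Rbm25-206 acceptor (chr12:83663959-83663988, plus strand): gtacttttgttggtttctAGaaactggaag

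At the level of whole genes, 4 of 54 members rose and 0 fell at a limma adjusted p under 0.05 over all 15108 genes, where 1.54% of all genes rose and 0.0662% fell. Without adjustment for multiple tests, 19 members were higher and 2 lower at p under 0.05, against 1703 and 1237 of all 15108 genes. In 20 members every AAV-Leptin-GFP library exceeded every AAV-GFP library, which held for 13.3% of all genes, and in 5 members every AAV-Leptin-GFP library was below every AAV-GFP library, which held for 11.9% of all genes. The median log2 fold change was 0.097 over the members and -0.00016 over all genes tested. It was 0.0021 for the 20 Hnrnp genes, of which 2 rose, and 0.12 for the 34 Rbm genes, of which 2 rose. The number called depended on single libraries: it was 8 without AAV-GFP replicate 1, 1 without AAV-Leptin-GFP replicate 3, and 0 without any one of the other 4 libraries, where 15 to 19 members had an unadjusted p under 0.05. Over all genes, 2114 to 2759 had such a p in those 4 fits. The calls over all genes changed as well, from 243 with all libraries to 420 without AAV-GFP replicate 1. They were 15 without AAV-Leptin-GFP replicate 3 and 4 to 18 in the other 4 fits. The number of members called was also 0 without the mean-variance trend of limma or without the filter on low values, beside 35 and 4 of all genes. In each of these 2 fits 21 members had an unadjusted p under 0.05, against 2632 and 3792 of all genes. Quantile normalization called 9 members beside 268 of all genes, and median-of-ratios scaling 10 beside 368. Without mitochondrially encoded genes 10 members were called beside 338 of all genes, and with a minimum mean of 5 TPM 10 beside 297.

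**Figure D1:**
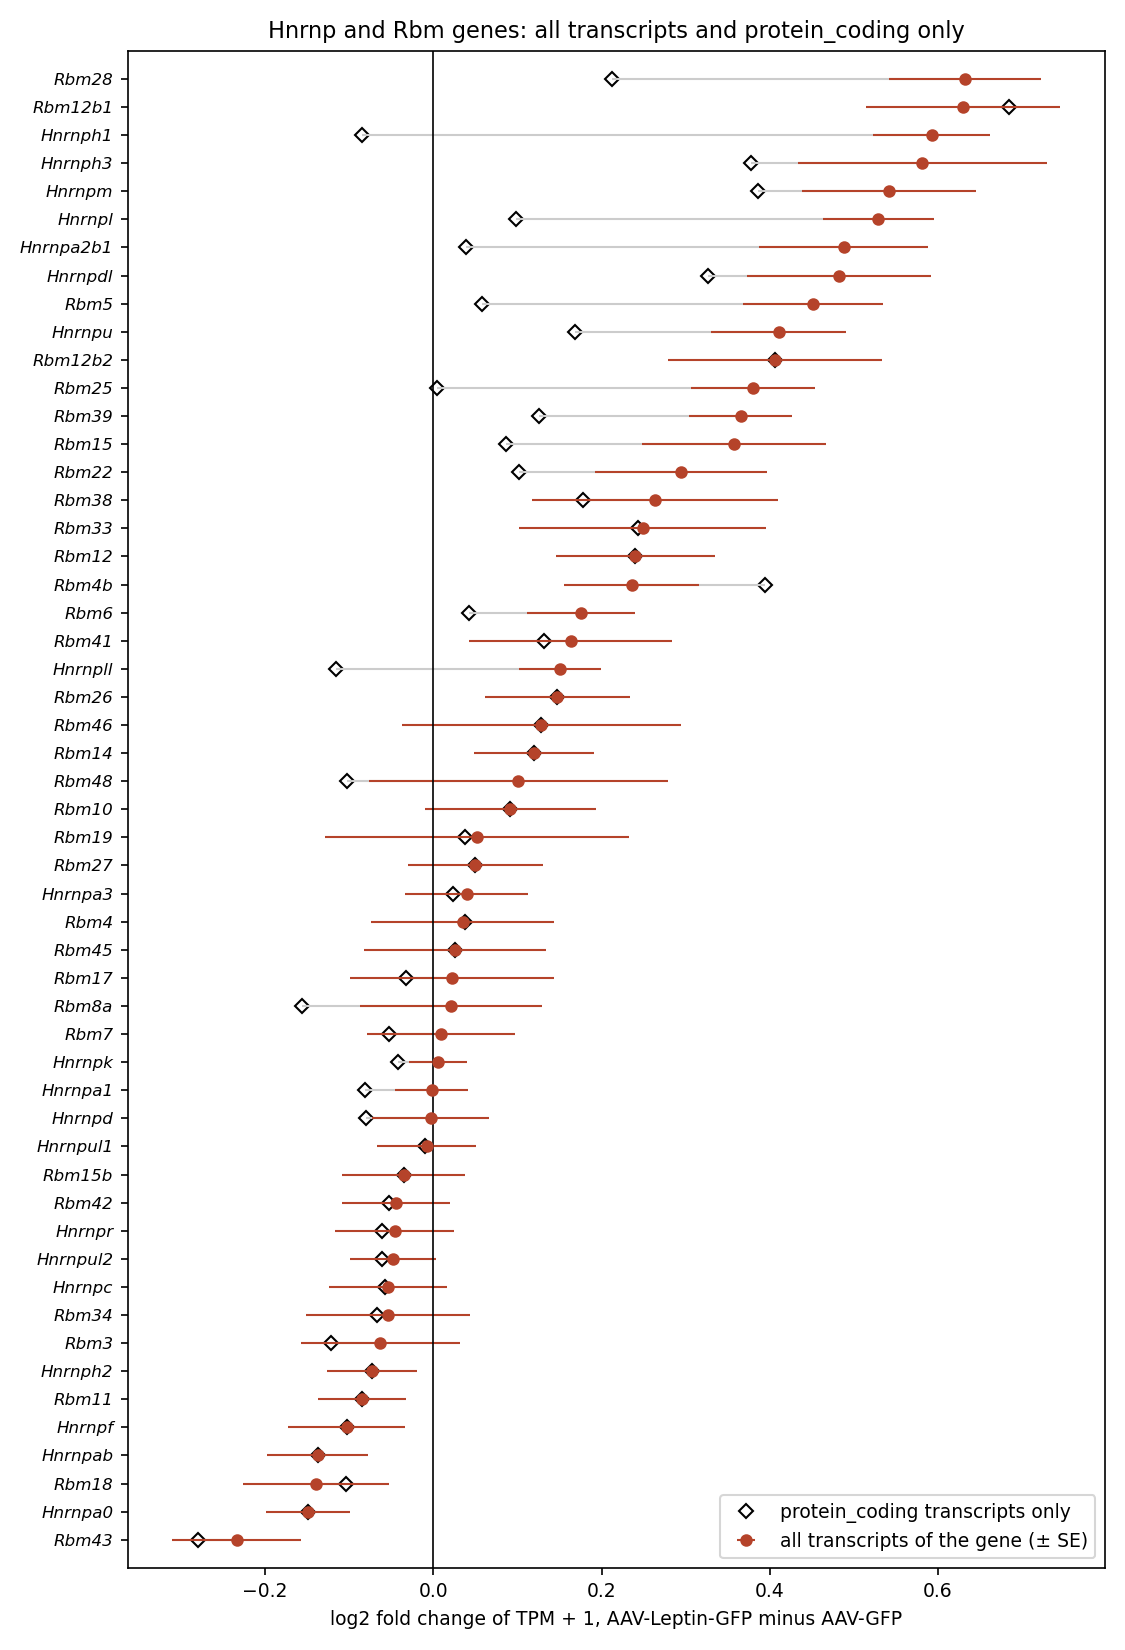
Log2 fold change (AAV-Leptin-GFP minus AAV-GFP, on log2(TPM + 1)) of the 53 members with a protein-coding transcript, with all transcripts of the gene (filled circles, bars are the SE) and with protein-coding transcripts only (open diamonds). Hnrnph1 stands at 0.59 with all transcripts and at -0.08 with coding transcripts only, and Rbm12b1 at 0.63 and 0.68.

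Among the Hnrnp genes that regulate splicing, Hnrnph1 and Hnrnpl rose. Hnrnph1 (ENSMUSG00000007850, chr11:50376990-50386528), whose protein binds G-rich RNA, stood at 207, 227 and 188 TPM in AAV-Leptin-GFP libraries, against 139.9, 138 and 133 TPM in AAV-GFP libraries. The lowest AAV-Leptin-GFP library lay well above the highest AAV-GFP library. The log2 fold change was 0.59 (SE 0.07, limma adjusted p = 0.0200). Reads of Hnrnph1 and of its close relative Hnrnph2, at a log2 fold change of -0.07, may be divided between them with error.

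Hnrnpl (ENSMUSG00000015165, chr7:28808541-28822266), whose protein binds CA-rich RNA, stood at 127, 134 and 119 TPM in AAV-Leptin-GFP libraries, against 94.4, 83.9 and 84.8 TPM in AAV-GFP libraries. The groups did not overlap, and AAV-GFP replicate 1 was the highest of its group. The log2 fold change was 0.53 (SE 0.07, limma adjusted p = 0.0218).

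Rbm28 and Rbm39 rose among the Rbm genes. Rbm28 (ENSMUSG00000029701, chr6:29123576-29165006), which codes for a nucleolar protein of ribosome production, stood at 20.1, 22.1 and 18.2 TPM in AAV-Leptin-GFP libraries, against 13.4, 11.9 and 12.5 TPM in AAV-GFP libraries. Its log2 fold change was 0.63 (SE 0.09, limma adjusted p = 0.0298), with no overlap between the groups. Rbm39 (ENSMUSG00000027620, chr2:156147239-156180238), a splicing factor related to U2AF, stood at 135, 135 and 125 TPM in AAV-Leptin-GFP libraries, against 109.8, 96.7 and 99.7 TPM in AAV-GFP libraries. Its log2 fold change was 0.37 (SE 0.06, limma adjusted p = 0.0405).

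Hnrnpa2b1, whose protein binds transport signals in neuronal mRNAs, had the highest level of all 54 genes. It stood at 439, 443 and 355 TPM in AAV-Leptin-GFP libraries, against 323, 270.5 and 286 TPM in AAV-GFP libraries. The groups did not overlap, yet the log2 fold change of 0.49 (SE 0.10) missed the threshold at a limma adjusted p of 0.0630.

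Other splicing regulators had like values that also missed it. Hnrnpm, whose protein binds GU-rich RNA, stood at 124, 132 and 106 TPM in AAV-Leptin-GFP libraries and 90.2, 72.9 and 84.6 TPM in AAV-GFP libraries (log2 fold change 0.54, limma adjusted p = 0.0542). Hnrnpu, or scaffold attachment factor A, stood at 157, 158 and 137 TPM in AAV-Leptin-GFP libraries and 124, 106 and 109 TPM in AAV-GFP libraries (log2 fold change 0.41, limma adjusted p = 0.0584). Neither gene had overlapping groups. Hnrnpdl, a relative of Hnrnpd, stood at 81.4, 81.1 and 65.4 TPM in AAV-Leptin-GFP libraries and 61.1, 50.4 and 50.7 TPM in AAV-GFP libraries (log2 fold change 0.48, limma adjusted p = 0.0771). Hnrnph3, of the same subfamily as Hnrnph1, stood at 40.0, 50.7 and 38.5 TPM in AAV-Leptin-GFP libraries and 31.8, 22.9 and 30.8 TPM in AAV-GFP libraries (log2 fold change 0.58, limma adjusted p = 0.0962). Both genes also had groups that did not overlap.

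Rbm5, a regulator of alternative exons in apoptosis genes, stood at 60.5, 65.4 and 54.6 TPM in AAV-Leptin-GFP libraries and 47.0, 43.4 and 40.6 TPM in AAV-GFP libraries (log2 fold change 0.45, limma adjusted p = 0.0509). Rbm25, a splicing regulator that works with the U1 particle, stood at 56.7, 57.2 and 53.0 TPM in AAV-Leptin-GFP libraries and 47.0, 40.2 and 40.6 TPM in AAV-GFP libraries (log2 fold change 0.38, limma adjusted p = 0.0568). Each AAV-Leptin-GFP library exceeded each AAV-GFP library for both genes. Rbm12b1 stood at 7.06, 5.89 and 6.72 TPM in AAV-Leptin-GFP libraries and 4.12, 3.42 and 4.11 TPM in AAV-GFP libraries (log2 fold change 0.63, limma adjusted p = 0.0508). Its neighbour and near copy Rbm12b2 had a log2 fold change of 0.41 (limma adjusted p = 0.146), and reads may be divided between this pair with error.

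**Figure D2:**
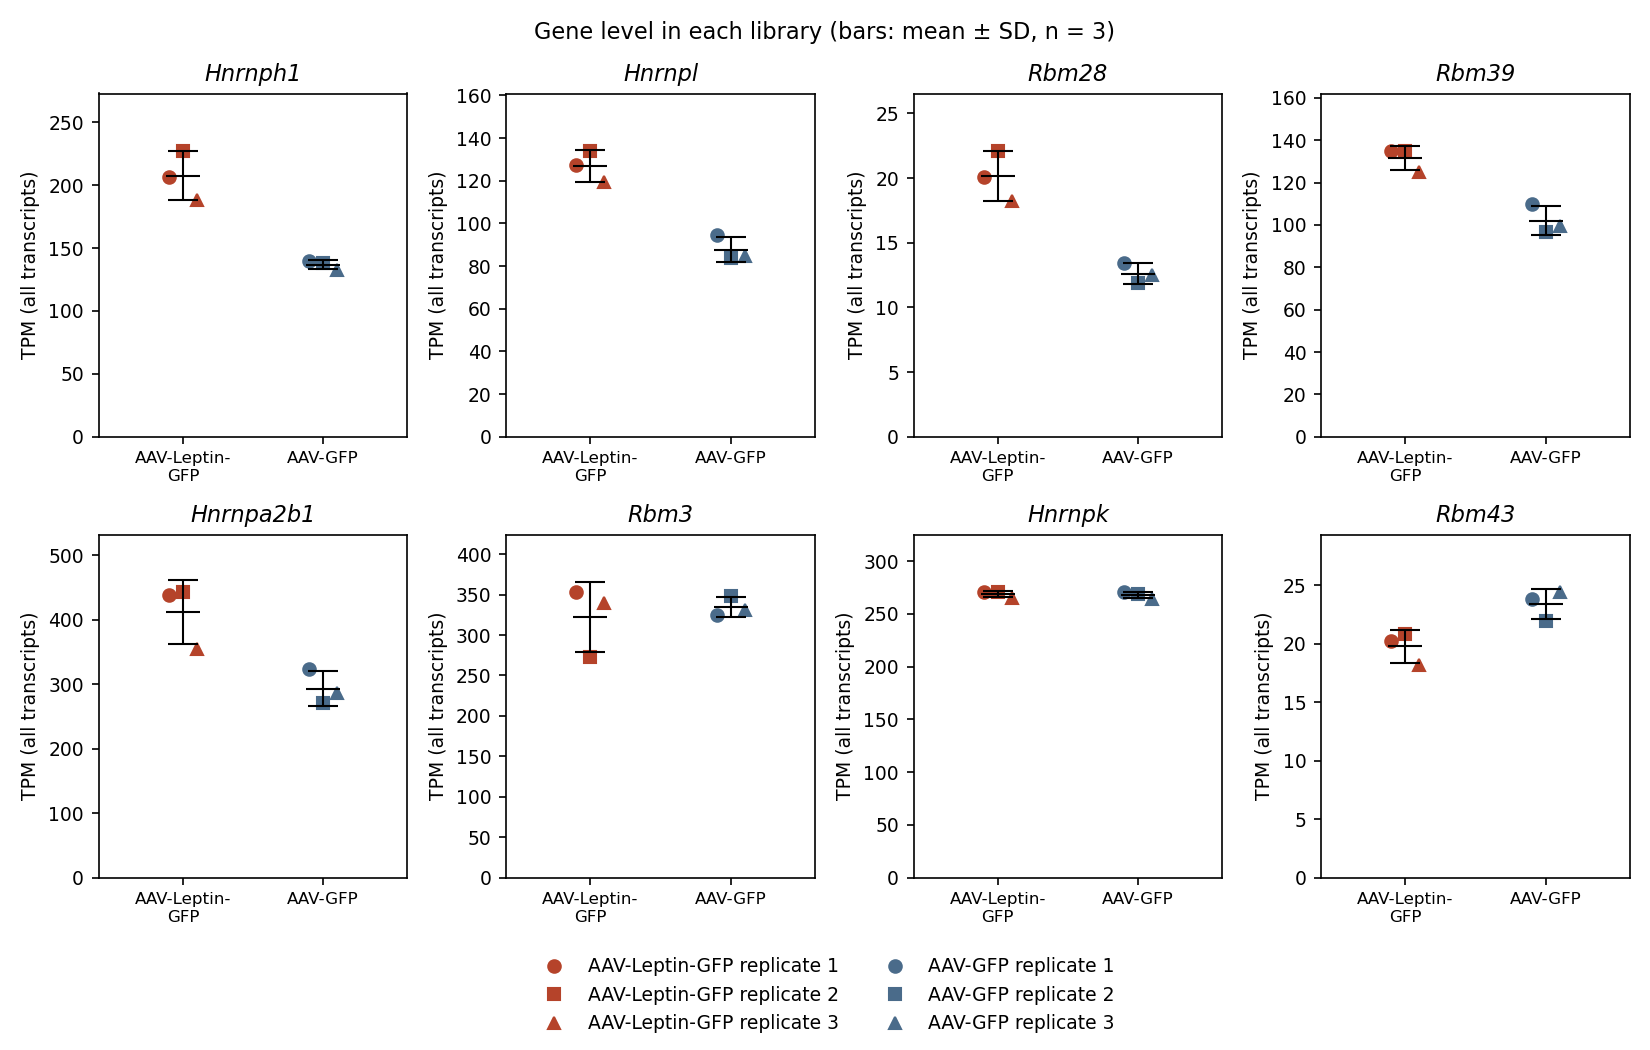
Level of 8 members in TPM, all transcripts summed, in each library, with AAV-Leptin-GFP on the left and AAV-GFP on the right of each panel; black bars are the mean and SD over 3 libraries. Hnrnph1, Hnrnpl, Rbm28 and Rbm39 do not overlap between the groups, while Rbm3 and Hnrnpk do.

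Several of the most abundant members differed little between the group means. Rbm3, which codes for a cold-inducible protein, stood at 354, 273 and 339 TPM in AAV-Leptin-GFP libraries, against 324, 348 and 330.4 TPM in AAV-GFP libraries (log2 fold change -0.06, SE 0.09, limma adjusted p = 0.769). Hnrnpk, whose protein binds C-rich RNA, stood at 270.3, 271 and 265 TPM in AAV-Leptin-GFP libraries, against 270.4, 269 and 264 TPM in AAV-GFP libraries (log2 fold change 0.0057, SE 0.03). Their groups overlapped. Hnrnpa1, a shuttling protein that represses exons, stood at 240.0, 241 and 227 TPM in AAV-Leptin-GFP libraries, against 238, 228 and 243 TPM in AAV-GFP libraries (log2 fold change -0.0016, SE 0.04). Hnrnpa3 stood at 185, 208 and 169 TPM in AAV-Leptin-GFP libraries, against 181, 178 and 185 TPM in AAV-GFP libraries (log2 fold change 0.04, SE 0.07). Among the 6 highest genes, Rbm3, Hnrnpk, Hnrnpa1 and Hnrnpa3 thus overlapped between the groups, whereas Hnrnpa2b1 and Hnrnph1 did not.

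No member fell by the test. The lowest log2 fold change was that of Rbm43, at 20.2, 20.9 and 18.2 TPM in AAV-Leptin-GFP libraries and 23.8, 22.0 and 24.5 TPM in AAV-GFP libraries (-0.23, SE 0.08, limma adjusted p = 0.160). Hnrnpa0, whose protein binds AU-rich mRNA, stood at 106, 104 and 96.7 TPM in AAV-Leptin-GFP libraries and 116, 112 and 111 TPM in AAV-GFP libraries (-0.15, SE 0.05, limma adjusted p = 0.168). Hnrnpab, Hnrnpf and Rbm11 were the other members with every AAV-Leptin-GFP library below every AAV-GFP library, at log2 fold changes of -0.14, -0.10 and -0.08.

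With protein-coding transcripts alone, none of the 53 members that have one passed the test in either direction (limma, over 13033 genes, where 0.407% rose and 0.0307% fell). At an unadjusted p under 0.05, 9 were higher and 4 lower, against 840 and 1639 of the 13033 genes. The median log2 fold change was 0.03, against -0.03 over all genes. In 8 members every AAV-Leptin-GFP library exceeded every AAV-GFP library, against 8.19% of all genes, and in 8 the reverse held, against 16.6% of all genes. Hnrnpk, with a total that differed little, was among the lower ones. Its coding transcripts stood at 254, 256 and 258 TPM in AAV-Leptin-GFP libraries, against 263, 266 and 261 TPM in AAV-GFP libraries (log2 fold change -0.04, SE 0.03). Its retained-intron transcripts differed by 8.42 TPM between the group means, with AAV-Leptin-GFP higher. Hnrnph1 coding transcripts stood at 66.3, 76.5 and 65.6 TPM in AAV-Leptin-GFP libraries, against 73.9, 70.8 and 76.0 TPM in AAV-GFP libraries, a log2 fold change of -0.08 (SE 0.07). Hnrnpa2b1 coding transcripts stood at 255, 266 and 249.6 TPM in AAV-Leptin-GFP libraries, against 263, 229 and 258 TPM in AAV-GFP libraries, a log2 fold change of 0.04 (SE 0.06). Both genes overlapped between the groups on this measure. For Hnrnpl, Rbm28 and Rbm39 the log2 fold change of coding transcripts was 0.10, 0.21 and 0.13. The largest was that of Rbm12b1, 0.68 (SE 0.13, limma adjusted p = 0.0626), followed by Rbm12b2, 0.41, Rbm4b, 0.39, and Hnrnpm, 0.39.

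The difference lay mainly in 2 transcript classes. Retained-intron transcripts of the members summed to 399, 405 and 315 TPM in AAV-Leptin-GFP libraries and to 148, 69.7 and 110.4 TPM in AAV-GFP libraries. That was 9.51% ± 0.817 (SD, n = 3) of the members' TPM in AAV-Leptin-GFP and 3.07% ± 1.02 (n = 3) in AAV-GFP libraries. Processed transcripts, which have no reading frame in the annotation, summed to 202, 213 and 163 TPM in AAV-Leptin-GFP libraries and to 88.9, 79.7 and 74.8 TPM in AAV-GFP libraries. A few genes held much of these sums: Hnrnpa2b1 made 109 TPM of the difference of 264 TPM between the group means in retained-intron transcripts, and Hnrnph1 and Hnrnpu made 74.7 and 24.6 TPM of the difference of 112 TPM in processed transcripts. The groups overlapped for transcripts marked for nonsense-mediated decay, at 4.97% ± 0.344 of members' TPM in AAV-Leptin-GFP and 4.66% ± 0.357 in AAV-GFP libraries (SD, n = 3 each).

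The retained-intron class was also larger outside these families. All other genes held 3.51% ± 0.257 of their TPM on retained-intron transcripts in AAV-Leptin-GFP and 2.29% ± 0.197 in AAV-GFP libraries (SD, n = 3 each). The ratio of these shares was 3.10 for the Hnrnp and Rbm genes and 1.53 for all other genes; no test of that difference was made. Processed transcripts held 3.05% of the TPM of other genes in AAV-Leptin-GFP and 2.93% in AAV-GFP libraries. Malat1, a long non-coding RNA kept in the nucleus, stood at 319, 316 and 303 TPM in AAV-Leptin-GFP libraries, against 158, 57.8 and 72.4 TPM in AAV-GFP libraries, and Neat1 at 79.3, 105 and 50.6 TPM in AAV-Leptin-GFP libraries, against 43.5, 19.1 and 27.3 TPM in AAV-GFP libraries. Neat1 is a nuclear RNA as well. Both were chosen after their values were seen, and the part of nuclear RNA content in the results was not tested. A retained intron and precursor RNA not yet spliced cannot be told apart in these values.

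**Figure D3:**
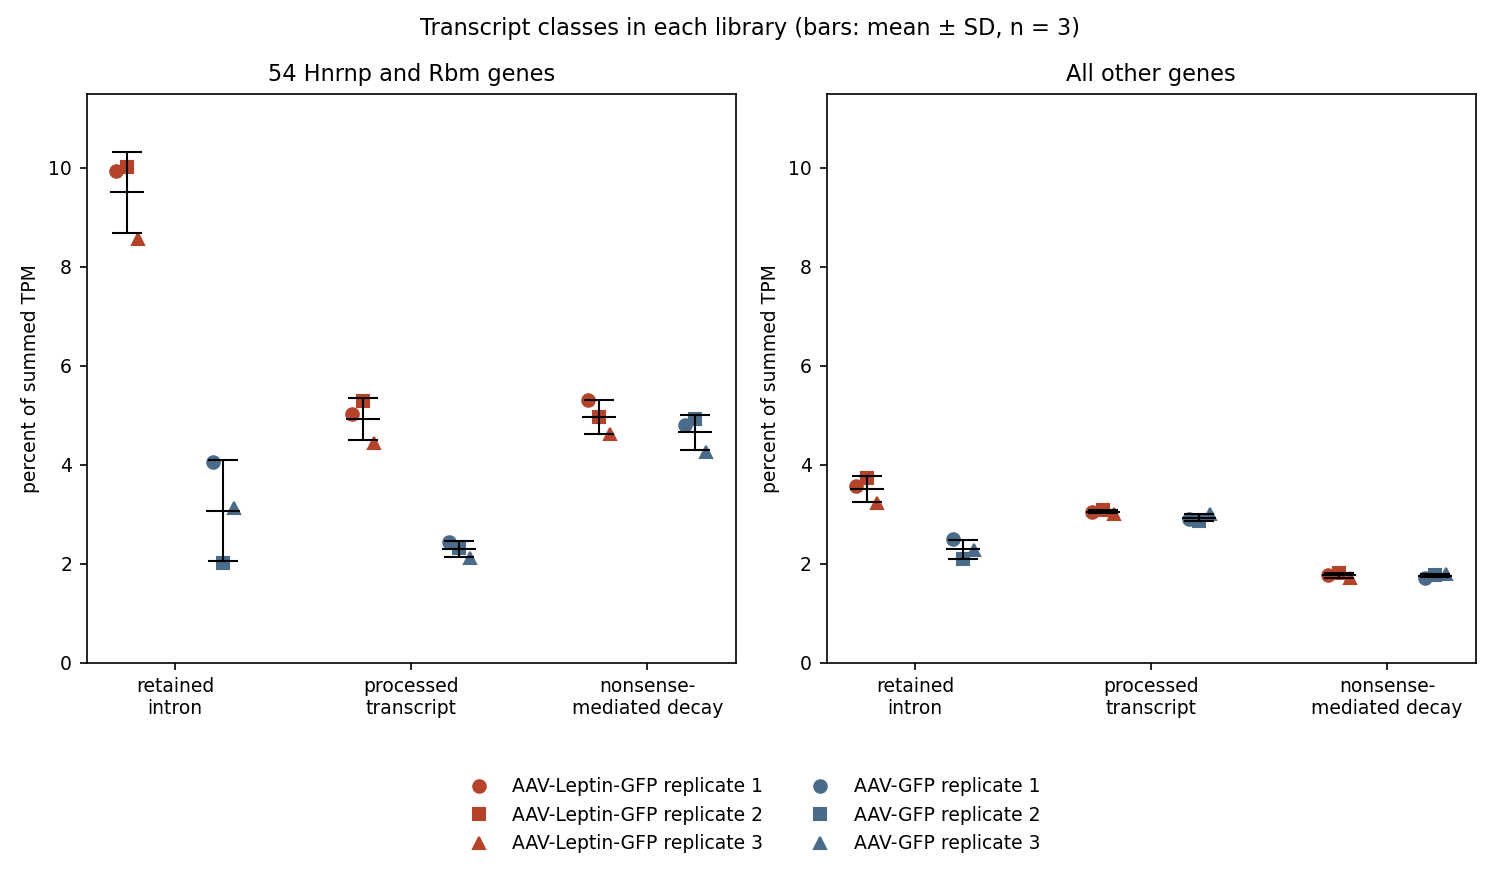
Percent of summed TPM on retained-intron, processed and nonsense-mediated decay transcripts in each library, for the 54 members (left) and all other genes (right); AAV-Leptin-GFP stands left of AAV-GFP in each class, and black bars are the mean and SD over 3 libraries. The retained-intron share of members is 8.56% to 10.02% in AAV-Leptin-GFP and 2.02% to 4.05% in AAV-GFP libraries.

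Gene by gene, the share of a gene's TPM on retained-intron transcripts could be tested in 34 members. It rose in 11 of them and fell in 0 (limma adjusted p under 0.05), where 13.8% of 7226 genes rose and 0.0969% fell. In 20 of the 34 every AAV-Leptin-GFP library exceeded every AAV-GFP library, against 43.2% of all genes. The median difference was 4.40 percentage points over the members and 1.90 over all genes. The count of 11 was 16 without AAV-Leptin-GFP replicate 3 and 0 without any one of the other 5 libraries, where 14 to 18 members had an unadjusted p under 0.05, and it was 5 on the log2(percent + 1) scale. Over all genes, 1809 to 2445 had such a p in the 5 fits with 0 members called. Of all 7226 genes, 1001 were called with all libraries, 1555 without AAV-Leptin-GFP replicate 3 and 0 in each of those 5 fits. On the log2(percent + 1) scale 546 were called. AAV-GFP replicate 1 had the highest share of its group in 10 of the 11. Among all 34 members tested it was highest or tied in 20, with ties at 0% in Hnrnpd, Hnrnpc and Rbm41.

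**Figure D4:**
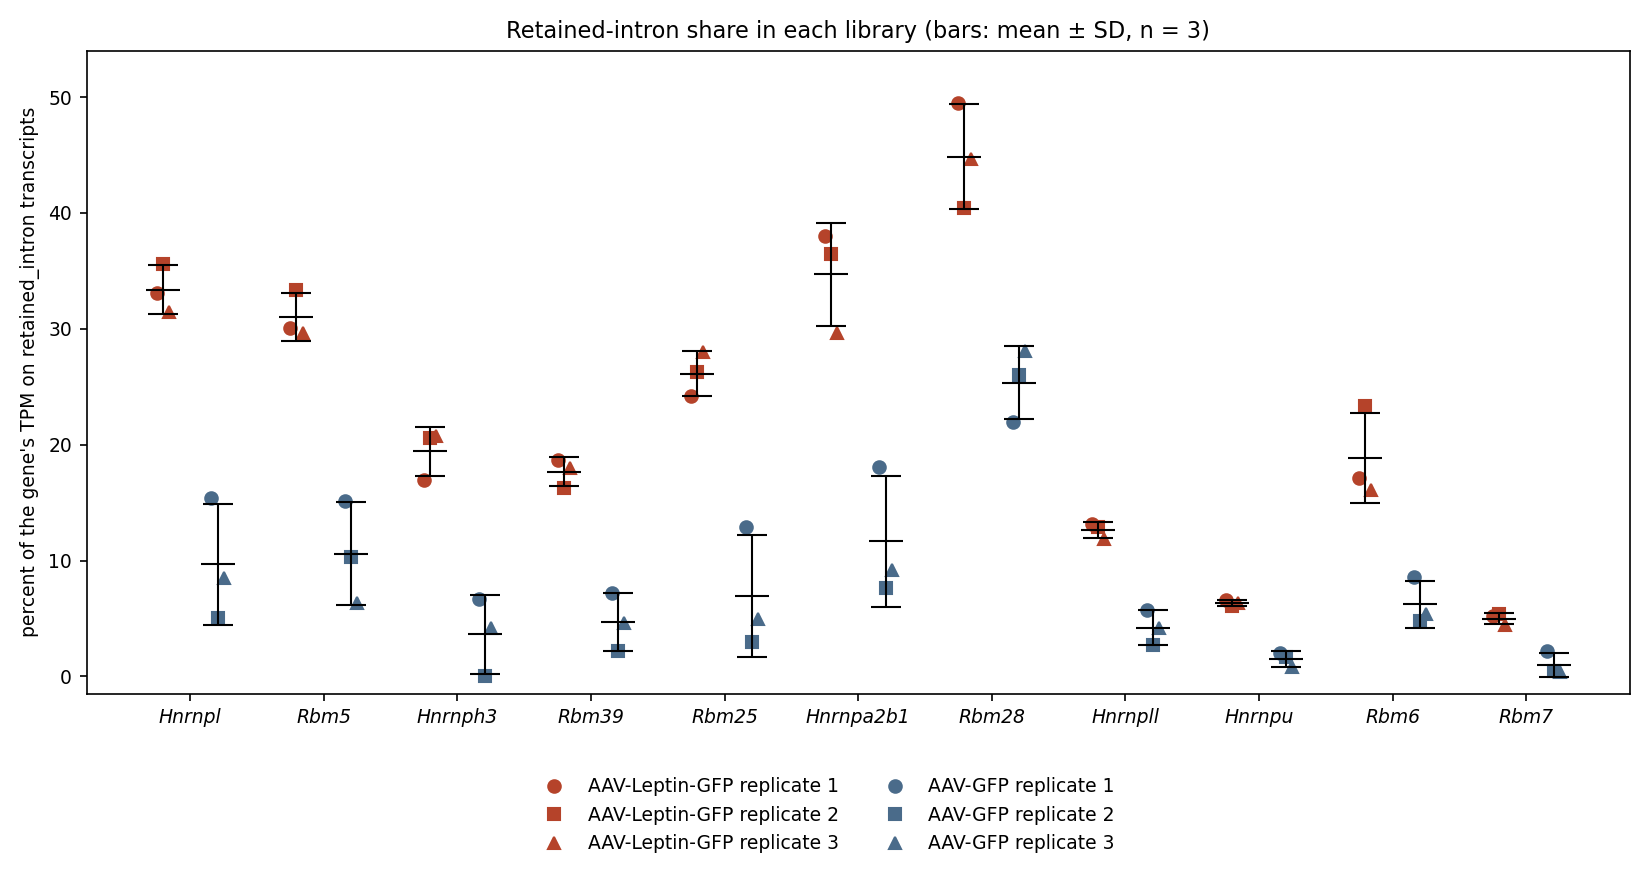
Percent of each gene's TPM on retained-intron transcripts in each library, for the 11 members whose share passed the test; AAV-Leptin-GFP stands left of AAV-GFP for each gene, and black bars are the mean and SD over 3 libraries. The groups do not overlap in any of the 11, and Hnrnpl reaches 31.4% to 35.6% in AAV-Leptin-GFP libraries against 5.07% to 15.4% in AAV-GFP libraries.

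Hnrnpl had the largest difference, with 33.1%, 35.6% and 31.4% of its TPM on retained-intron transcripts in AAV-Leptin-GFP libraries and 15.4%, 5.07% and 8.54% in AAV-GFP libraries (23.7 percentage points, SE 3.54, limma adjusted p = 0.0375). Hnrnpa2b1 had 38.0%, 36.5% and 29.6% in AAV-Leptin-GFP libraries and 18.1%, 7.66% and 9.22% in AAV-GFP libraries (23.1 percentage points, SE 4.16). The spread within AAV-GFP was wide in both genes, with replicate 1 at the top. Rbm5 had 30.1%, 33.4% and 29.6% in AAV-Leptin-GFP libraries and 15.2%, 10.3% and 6.37% in AAV-GFP libraries. Rbm25 had 24.2%, 26.2% and 28.0% in AAV-Leptin-GFP libraries and 12.9%, 2.97% and 4.99% in AAV-GFP libraries. Rbm28 was the member with the largest such share in both groups among the 11, at 44.9% ± 4.56 in AAV-Leptin-GFP and 25.4% ± 3.14 in AAV-GFP libraries (SD, n = 3 each).

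The other 6 were Hnrnph3, Rbm39, Hnrnpll, Hnrnpu, Rbm6 and Rbm7. Hnrnph3 averaged 19.4% in AAV-Leptin-GFP and 3.63% in AAV-GFP libraries, and Rbm39 17.7% in AAV-Leptin-GFP and 4.69% in AAV-GFP libraries. Rbm6, the chromosome 9 neighbour of Rbm5, averaged 18.9% in AAV-Leptin-GFP and 6.25% in AAV-GFP libraries. Rbm7, a subunit of an adaptor that brings nuclear RNA to the exosome, had 5.22%, 5.35% and 4.43% in AAV-Leptin-GFP libraries and 2.22%, 0.487% and 0.355% in AAV-GFP libraries. The difference was below 0 in 3 of the 34 members, Rbm4b, Rbm19 and Rbm4, without passing the test. Rbm4b was at 40.2% ± 1.26 in AAV-Leptin-GFP and 45.4% ± 3.17 in AAV-GFP libraries (limma adjusted p = 0.280). Rbm19 was at 0% in every AAV-Leptin-GFP library and at 17.0%, 0% and 7.14% in AAV-GFP libraries (limma adjusted p = 0.215).

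Hnrnph1 has no retained-intron transcript with signal, and its difference lay in processed transcripts. These held 74.7 TPM more in AAV-Leptin-GFP than in AAV-GFP libraries, while its coding transcripts differed by -4.12 TPM. Hnrnph1-212, of 816 bases, stood at 61.0, 66.7 and 56.8 TPM in AAV-Leptin-GFP libraries, against 25.3, 36.1 and 29.8 TPM in AAV-GFP libraries (log2 fold change 1.00, limma adjusted p = 0.0515). All its non-coding transcripts together held 66.5% ± 1.35 of its TPM in AAV-Leptin-GFP and 46.2% ± 3.07 in AAV-GFP libraries (SD, n = 3 each). In the test of this wider share, over every class but protein-coding, 0 of 39 members passed (limma, 15 at an unadjusted p under 0.05, all higher), where 0.0102% of 9844 genes rose. At that unadjusted p, 2306 of the 9844 genes were higher and 81 lower. The smallest adjusted p were those of Hnrnph1, Rbm25, Rbm28, Rbm5 and Hnrnpl, between 0.0597 and 0.0605.

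At the level of single transcripts 0 of 225 member transcripts passed the limma test over 33615 transcripts, where 0.107% rose and 0.0238% fell. At an unadjusted p under 0.05, 56 were higher and 11 lower, against 4127 and 2019 of all 33615 transcripts. A p above the threshold does not show that a transcript did not differ. Of the 41 retained-intron transcripts, 31 were higher in every AAV-Leptin-GFP library than in every AAV-GFP library, against 51.3% of all 4245 retained-intron transcripts tested, and their median log2 fold change was 1.35, against 0.88. Both sets were filtered on a mean of 1 TPM over all 6 libraries. A transcript near 0 in AAV-GFP libraries could thus pass through AAV-Leptin-GFP libraries alone, which can raise these counts and medians. Hnrnpa2b1-212, which reads through the donor printed above, stood at 8.40, 9.06 and 6.12 TPM in AAV-Leptin-GFP libraries, against 1.07, 1.15 and 0.247 TPM in AAV-GFP libraries (log2 fold change 2.31, limma adjusted p = 0.0504). Hnrnpa2b1-211 was the most abundant of the class, at 77.5, 75.6 and 51.7 TPM in AAV-Leptin-GFP libraries, against 24.2, 11.1 and 12.3 TPM in AAV-GFP libraries (log2 fold change 2.09, limma adjusted p = 0.0557). The groups did not overlap for either transcript.

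The other printed sites belong to transcripts with like values. Hnrnpl-205 stood at 18.9, 24.9 and 17.2 TPM in AAV-Leptin-GFP libraries, against 6.70, 1.68 and 3.17 TPM in AAV-GFP libraries, and Hnrnpl-212 at 16.6, 15.4 and 12.4 TPM in AAV-Leptin-GFP libraries, against 5.89, 2.01 and 2.92 TPM in AAV-GFP libraries. Rbm39-205 stood at 10.7, 7.55 and 7.65 TPM in AAV-Leptin-GFP libraries, against 2.75, 1.49 and 1.56 TPM in AAV-GFP libraries. Rbm25-206, which holds the whole intron between its printed ends, stood at 7.38, 6.44 and 5.43 TPM in AAV-Leptin-GFP libraries, against 2.07, 0.554 and 0.706 TPM in AAV-GFP libraries. In all 4 the AAV-Leptin-GFP libraries exceeded the AAV-GFP libraries, and AAV-GFP replicate 1 was the highest of its group. Rbm28-204 stood at 3.73, 2.10 and 2.34 TPM in AAV-Leptin-GFP libraries, against 0.587, 0 and 0 TPM in AAV-GFP libraries, so it passed the level filter through AAV-Leptin-GFP libraries only.

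The share that each isoform holds of its gene was tested for 154 member transcripts, and 0 passed (limma over 27712 transcripts, where 0.0217% rose and 0.0289% fell). An unadjusted p under 0.05 was found for 33 member transcripts, against 3331 of all 27712. The adjusted p was 0.172 for each isoform named here except Hnrnpdl-207. Rbm25-201, the main coding transcript of Rbm25, held 67.7%, 65.6% and 67.2% of the gene in AAV-Leptin-GFP libraries and 80.7%, 88.7% and 90.4% in AAV-GFP libraries. Hnrnpdl-202, a coding transcript, held 34.0%, 30.6% and 32.7% in AAV-Leptin-GFP libraries and 49.4%, 60.2% and 58.1% in AAV-GFP libraries. Hnrnpl-201, also coding, held 18.0%, 23.7% and 27.4% in AAV-Leptin-GFP libraries and 41.6%, 48.9% and 46.7% in AAV-GFP libraries. These 3 coding isoforms did not overlap between the groups. Hnrnpu-206, which the annotation marks for nonsense-mediated decay although it is the most abundant Hnrnpu transcript, held 48.2% ± 1.12 in AAV-Leptin-GFP and 64.1% ± 2.57 in AAV-GFP libraries (SD, n = 3 each). Rbm33-202, a coding transcript of 9510 bases, went the other way, at 33.2% ± 2.59 in AAV-Leptin-GFP and 13.9% ± 5.69 in AAV-GFP libraries.

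Across 6 lists of related RNA-binding proteins with other symbols 6 genes rose and 0 fell (limma adjusted p under 0.05), where 1.54% of all genes rose and 0.0662% fell. At an unadjusted p under 0.05, 1703 of all 15108 genes were higher and 1237 lower. Of 32 hnRNP-type proteins, 2 rose, Ewsr1 and Sfpq, and 11 were higher and 1 lower at an unadjusted p under 0.05, with a median log2 fold change of 0.06. Ewsr1, a FET-family protein, stood at 129.6, 133 and 107 TPM in AAV-Leptin-GFP libraries, against 76.5, 66.1 and 72.4 TPM in AAV-GFP libraries (log2 fold change 0.77, limma adjusted p = 0.0210). With coding transcripts only its log2 fold change was 0.23 (limma adjusted p = 0.122). Sfpq, a paraspeckle protein, stood at 91.4, 105 and 90.2 TPM in AAV-Leptin-GFP libraries, against 75.5, 69.7 and 70.1 TPM in AAV-GFP libraries (log2 fold change 0.41, limma adjusted p = 0.0448), and with coding transcripts only it had a log2 fold change of 0.17 (limma adjusted p = 0.246). Cirbp, the cold-inducible relative of Rbm3, stood at 94.6, 75.1 and 71.9 TPM in AAV-Leptin-GFP libraries, against 69.8, 64.2 and 68.9 TPM in AAV-GFP libraries (log2 fold change 0.24, limma adjusted p = 0.260).

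Of 34 neuronal and tissue-specific RNA-binding proteins tested, 3 rose and 0 fell. At an unadjusted p under 0.05, 8 were higher and 0 lower, against 1703 and 1237 of all 15108 genes. Tia1, a stress granule protein, stood at 26.8, 33.0 and 23.3 TPM in AAV-Leptin-GFP libraries, against 10.5, 8.12 and 10.6 TPM in AAV-GFP libraries (log2 fold change 1.41, limma adjusted p = 0.0155), and at a log2 fold change of 0.16 with coding transcripts only. Its relative Tial1 had a log2 fold change of 0.54 (limma adjusted p = 0.0391), and of -0.42 with coding transcripts only. Zfp36l1, which promotes the decay of AU-rich mRNAs, stood at 18.8, 21.2 and 20.3 TPM in AAV-Leptin-GFP libraries, against 13.4, 12.5 and 12.1 TPM in AAV-GFP libraries, a log2 fold change of 0.63 on both measures (limma adjusted p = 0.0203, and 0.0173 with coding transcripts only). Zfp36l1 was the only gene of the 6 related lists that passed the test with coding transcripts alone.

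Of 9 exon junction complex genes, Acin1 rose, at 77.5, 84.9 and 69.7 TPM in AAV-Leptin-GFP libraries, against 56.4, 43.7 and 47.9 TPM in AAV-GFP libraries (log2 fold change 0.64, limma adjusted p = 0.0405). With coding transcripts only its log2 fold change was 0.21 (limma adjusted p = 0.198). In this list 3 genes were higher and 2 lower at an unadjusted p under 0.05, against 1703 and 1237 of all 15108 genes. The 2 lower ones, Magohb and Magoh, core subunits of the complex, had log2 fold changes of -0.39 and -0.25 (limma adjusted p = 0.0909 and 0.112), with every AAV-Leptin-GFP library below every AAV-GFP library. No gene passed the limma test in either direction among 12 nonsense-mediated decay factors, 13 genes of the m6A RNA mark and 12 nuclear exosome adaptors. At an unadjusted p under 0.05, 2, 1 and 3 of them were higher and 0 lower, beside the same 1703 and 1237 of all 15108 genes. The median log2 fold changes of these lists were 0.04, 0.01 and 0.13.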

How the data were processed

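RNA from neuron-enriched DRG was sequenced from stranded mRNA libraries, per the labels' protocols. The authors deposited TPM values per transcript. The submitters' processing notes name Salmon 1.6.0, DESeq2 1.34.0, FastQC 0.11.9 and Trim Galore 0.6.6, and the builds GRCm38 and mm10, without saying which made these values. Read counts and depth are not known from TPM, so no count test was made. TPM were summed by gene identifier. Transcript classes and coordinates were taken from GENCODE M21 (GRCm38) by identifier without version. This matched 97.4% of 140789 transcripts and all 430 of the members; 137124 of the 137161 matched identifiers carry a higher version number in the file, 132999 of them by 1, and the annotation release behind them is not stated in the labels.

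Genes and transcripts with a mean of at least 1 TPM were tested with limma 3.58.1 in R 4.3.3 on log2(TPM + 1), with a mean-variance trend, two-sided, AAV-Leptin-GFP minus AAV-GFP. Fold changes on this scale understate those of low genes. Shares were tested as percent of the gene's TPM: isoforms between 5% and 95%, then all non-coding classes, then retained introns alone. P-values were adjusted by Benjamini-Hochberg over all features of a test, with 0.05 as threshold. Filters were set on all 6 libraries; in leave-one-library fits this was decided after a first run that filtered again on 5 libraries, and it changed the counts. The code was tested on simulated data. Members and lists were chosen with earlier results of these data known. Values per library are given for the members called, the 12 with the smallest p, the 6 highest, Rbm3 and Cirbp, the isoforms and shares with the smallest p, and called genes of related lists; others named, among them Rbm43, Hnrnpa0, Rbm4b, Rbm12b2 and Rbm28-204, were chosen after their values were seen. A permutation test planned on the summed TPM was not used, since the members were chosen with results known. Estimates of this kind divide reads among overlapping isoforms, and shares carry that error.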

Additional observations from a re-analysis of the deposited data

How the results depend on the processing

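All tests here are limma fits. At gene level 243 genes, 4 Hnrnp and Rbm genes and 6 genes of the related lists were called, and 44 transcripts at transcript level. With the replicate number as a block, 74 genes and 1 member were called; the same fit called 0 transcripts, 0 isoform shares, 0 genes in the wider non-coding share, 0 genes and 0 members in the retained-intron share, and 1 gene of the related lists (17 members in the retained-intron share and 61 member transcripts had an unadjusted p under 0.05). Deviations of libraries with the same number correlated at 0.0341, -0.0699 and -0.0241 across genes, and those of the other pairs at -0.0818 to 0.1118. With 3 libraries in a group, these values cannot show whether libraries of the same number were prepared together. Without the mean-variance trend, 35 genes, 0 members (21 at an unadjusted p under 0.05) and 2 genes of the related lists were called, together with 491 transcripts, of which 6 were members', and 296 genes, of which 6 were members, in the non-coding share. With no filter on low values, 4 genes, 0 members (21 unadjusted), 0 genes of the related lists and 5 transcripts were called. With a minimum mean of 5 TPM, 297 genes and 10 members were called, and 0 transcripts, 5 isoform shares and 565 genes (8 members) in the non-coding share. Quantile normalization called 268 genes, 9 members, 10 genes of the related lists and 67 transcripts (1 of a member). Median-of-ratios scaling called 368 genes, 10 members, 10 genes of the related lists and 203 transcripts (5 of members). Without mitochondrially encoded genes 338 genes and 10 members were called. A pseudocount of 0.1 called 8 transcripts, and one of 5 called 534, of which 16 were members'. On log2(percent + 1), 60 isoform shares, 36 genes in the non-coding share and 546 genes (5 members) in the retained-intron share were called, where the percent scale called 14, 2 and 1001 (11 members).

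With protein-coding transcripts only, 57 genes, 0 members (13 unadjusted) and 1 gene of the related lists were called, and the summed differences were -20.5 TPM for Hnrnp and -14.6 TPM for Rbm genes. That setting also turned the sign of the log2 fold change for Cirbp (-0.095), Hnrnph1 (-0.085), Hnrnpk (-0.042), Hnrnpll (-0.12) and Tial1 (-0.42). Quantile normalization gave Hnrnpa1 0.055 and Rbm3 0.0061, and the removal of mitochondrial genes gave Hnrnpa1 0.032.

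When each library was left out in turn, the calls ranged from 4 to 420 genes, 0 to 8 members, 0 to 11 genes of the related lists, 0 to 1278 transcripts (0 to 28 of members), 4 to 23 isoform shares, 1 to 87 genes in the non-coding share, and 0 to 1555 genes (0 to 16 members) in the retained-intron share. The highest counts at gene and transcript level came without AAV-GFP replicate 1, and those of both class shares without AAV-Leptin-GFP replicate 3. The cause was not tested. The summed difference ranged from 227 to 405 TPM for Hnrnp and from 43.6 to 84.5 TPM for Rbm genes, and the non-coding percent of the members from 8.93 to 10.3 points. Log2 fold changes near 0 changed sign, with ranges of -0.026 to 0.026 for Hnrnpa1, -0.037 to 0.11 for Hnrnpa3, -0.0040 to 0.015 for Hnrnpk and -0.13 to 0.052 for Rbm3. Because TPM hold no read counts, the depth behind low transcripts is unknown. Transcripts above 0 numbered 64423, 64087 and 61474 in AAV-Leptin-GFP libraries and 60572, 55476 and 55954 in AAV-GFP libraries, without overlap. The part of this difference in the results, among them values of 0 in AAV-GFP libraries, was not tested.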
